A study of Mus musculus with 40 samples.

Results

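The mitochondrial ribosomal protein genes, the Mrpl and Mrps genes of the nucleus, were followed across all RNA-seq groups of a study of Ikaros in mouse B cells. Every gene in the deposited tables whose name, without its suffix, starts with Mrpl or Mrps and a digit was taken, which gave 76 of 24732 genes. Of these, 49 encode proteins of the large subunit and 26 of the small subunit. Mrps36 carries the name but belongs to the 2-oxoglutarate dehydrogenase complex. The rule uses names and no measured value, and it leaves out Mrp63 and Ict1, other names of Mrpl57 and Mrpl58.

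The 28 libraries came from follicular B cells of C57BL/6 mice, sorted by FACS; 8 ATAC-seq and 4 ChIP-seq samples are not analysed here. All mice carried MD4, a transgenic B cell receptor that binds hen egg lysozyme (HEL). Ikaros is a zinc finger DNA-binding protein encoded by Ikzf1, and floxed (fl) alleles were deleted by Cd23-cre, a Cre expressed late in B cell maturation. Library numbers in the labels start with 36, 49 or 57, called library series here. Naive cells of series 36 had Cd23-cre with an Ikzf1 genotype of fl/- (2 libraries) or fl/+ (2 libraries). Naive cells of series 57 were fl/+, 2 libraries without Cre and 1 with it. Cells taken 1 day after intravenous HEL were fl/fl, 5 libraries with Cre and 5 without, all of series 57. Anergic cells (3 libraries, series 57) came from mice that also carried ML5, a transgene for soluble HEL: replicate 1 was fl/fl and replicate 2 fl/+, neither with Cre, and replicate 3 was fl/+ with Cre. Cells cultured for 1 day with CpG, a DNA ligand of Toll-like receptor 9, all had Cre, and 4 libraries each were fl/- and fl/+ (series 49). The age of the mice is not given in the labels. Nothing in the labels ties replicates to separate animals, and p-values therefore measure the spread of these samples, part of which may be technical.

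Mitochondria keep their own ribosome, which makes membrane-embedded subunits of the respiratory chain from mRNAs of the mitochondrial genome. All of its proteins are encoded in the nucleus, made in the cytosol and imported, so the particle depends on the joint supply of many separate nuclear transcripts. Some of the proteins descend from bacterial ribosomal proteins and others were added during the evolution of mitochondria. The mRNAs of the mitochondrial genome itself are not analysed here.

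Depth was 12126702 to 25424364 whole reads per library, recovered from the deposited values. Ikzf1, in TPM (transcripts per 1000000), was lower with Ikaros loss than in the controls in each setting: 57.3 to 65.3 against 120.2 to 136 in naive cells, 60.3 to 79.3 against 195 to 261 after HEL and 31.7 to 39.5 against 135 to 172 after CpG. All 10 B cell markers were above 0 in every group, with a summed level of 48345 to 62609 TPM outside CpG and 4371 to 8899 TPM in CpG. The summed level of 12 T and NK cell markers was 30.9 to 48.6 TPM in series 36, 5.4 to 24 TPM in series 57 and 1.68 to 6.8 TPM in CpG. That of 8 neutrophil markers was 23.1 to 95.2 TPM in series 36, at most 0.692 TPM in series 57 and 0 to 126 TPM in CpG. The 10 myeloid and dendritic cell markers summed to more with Ikaros loss than in controls: 61.2 to 63.8 against 30.4 to 37.3 TPM in naive cells, 47.1 to 58.9 against 16.8 to 21.6 TPM after HEL and 36 to 44.3 against 21 to 30.5 TPM after CpG. The part of these transcripts in the results was not tested, and fewer cells of a type and less RNA per cell cannot be told apart in bulk libraries.

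All 76 genes were above 0 in every library, and 75 reached 1 TPM in every library. TPM is divided by a gene length, and the lengths used are not stated. Comparisons of levels between genes below rest on those lengths. The mean TPM of a gene over the 28 libraries had a median of 82.6, with 3 genes below 10 and 4 above 300.

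Mrpl52, a large-subunit protein without a bacterial relative, was the highest with a mean of 747 TPM (lowest 319.6, median 755, highest 1252). Mrps16, a small-subunit protein with a bacterial relative, had a mean of 330.5 TPM (238 to 421). Mrpl12, the relative of the bacterial stalk protein that also binds the mitochondrial RNA polymerase, had a mean of 326 TPM (129.7 to 818). Mrpl30 (305 TPM) and Mrpl54 (296 TPM) came next, and the ranges of these 4 genes below Mrpl52 overlapped. Together the top 5 genes held 20.6% to 35.6% of the members' summed TPM. Mrpl52 alone held 16.2% and 16.8% of it in naive fl/- cells and 6.22% to 8.1% in anergic cells.

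At the other end Mrpl23 had a mean of 2.21 TPM, which rests on 3 to 21 reads per library. Mrpl1 (6.15 TPM), Mrps33 (7.22 TPM), Mrpl35 (10.4 TPM) and Mrps25 (12.1 TPM) were the next lowest. The median of the mean levels was 82.9 TPM for large-subunit genes and 68.7 TPM for small-subunit genes. The 9 small-subunit genes without a bacterial relative had a median of 24.6 TPM in naive Cre fl/+ cells of series 36 and 80.9 TPM in CpG Cre fl/+ cells. RefSeq names 1 pseudogene each for Mrpl23, Mrpl27 and Mrpl48 and 3 for Mrps36, so their values are uncertain. A suffix in the deposited tables marks 10 members as overlapping another gene (Mrpl19, Mrpl21, Mrpl24, Mrpl41, Mrpl48, Mrpl49, Mrpl53, Mrps6, Mrps25 and Mrps27), and their values may hold reads of a neighbour. On GRCm38, RefSeq coding genes also lie over Mrpl2, Mrpl14, Mrpl18, Mrpl27, Mrpl37, Mrpl43, Mrpl44, Mrps2, Mrps7, Mrps18a and Mrps23, which carry no mark. The same limit holds for these wherever they are named below. Mrpl41 and Mrps27 carry the mark without such a coding gene there.

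**Figure D1:**
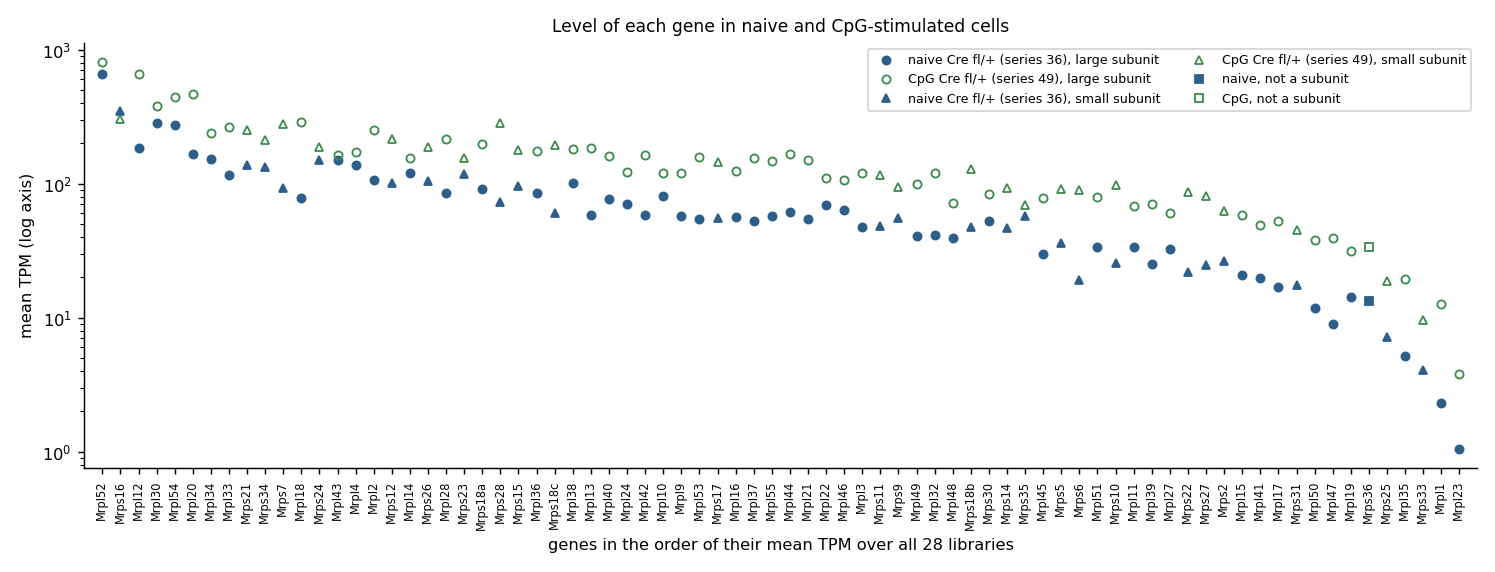
Mean TPM (log axis) of each of the 76 genes in naive Cre fl/+ cells of series 36 (filled) and CpG Cre fl/+ cells (open), ordered by the mean over all 28 libraries; marker shape gives the subunit. The highest gene is Mrpl52 and the lowest Mrpl23, and Mrps16 is the gene with a lower mean in CpG by the log2 difference given below.

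Promoters are shown for 4 members that the results below turn on: Mrpl52 rose with Ikaros loss after HEL and CpG, Mrpl12 and Mrps22 had the smallest adjusted p of the members for the rise with CpG in fl/+ and fl/- cells, and Mrpl24 had it for HEL against naive cells. Each run is the 120 bases before the annotated start, from RefSeq on GRCm38.p6 (the submitters' processing notes name mm9), in lower case with motif letters in capitals, which here are CCGGAAG, the core bound by ETS factors, and TGGGAA, a core bound by Ikaros, on either strand.
Mrpl52 (chr14:54426789-54426908, + strand): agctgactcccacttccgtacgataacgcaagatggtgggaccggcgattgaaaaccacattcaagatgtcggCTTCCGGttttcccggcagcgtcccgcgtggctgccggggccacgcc
Mrpl12 (chr11:120484517-120484636, + strand): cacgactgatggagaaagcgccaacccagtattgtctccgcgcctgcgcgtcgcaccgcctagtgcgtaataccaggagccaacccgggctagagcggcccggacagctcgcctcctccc
Mrps22 (chr9:98601680-98601799, - strand): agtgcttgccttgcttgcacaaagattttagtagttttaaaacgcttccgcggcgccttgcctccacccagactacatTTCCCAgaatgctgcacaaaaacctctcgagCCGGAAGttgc
Mrpl24 (chr3:87919424-87919543, + strand): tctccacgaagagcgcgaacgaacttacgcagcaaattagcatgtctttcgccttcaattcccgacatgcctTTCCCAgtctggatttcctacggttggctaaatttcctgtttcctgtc

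Of the 76 members, 67 had a window of 300 bases around the start in the RefSeq table. CCGGAAG was in 34.3% of these windows, in 21.1% of those of 7684 expressed genes and in 9.12% of all 27025. AAGATGGCG, bound by YY1, was in 11.9%, 3.9% and 1.49% in the same order. GGGCGG, bound by SP1, was in 49.3%, 66.7% and 35.9%, and CACGTG, the E-box bound by Myc and Max, in 7.46%, 11.1% and 7.24%. TGGGAA was in 28.4%, 22.4% and 25.5%. The 23 members with CCGGAAG had a median log2 difference of 1.11 between CpG and naive Cre fl/+ cells, and the 44 without it 1.28. Motifs were searched on both strands, and a match describes letters in a window only.

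The mean of log2(TPM + 1) over the 76 genes was similar in all groups outside CpG and higher in CpG. It was 5.71 ± 0.053 (SD, n = 2) in naive Cre fl/- cells and 5.67 ± 0.024 (n = 2) in naive Cre fl/+ cells of series 36. In series 57 it was 5.62 ± 0.022 (n = 2) in naive fl/+ cells without Cre and 5.65 in the single naive library with Cre. HEL-exposed cells were at 5.67 ± 0.016 (n = 5) without Cre and 5.64 ± 0.039 (n = 5) with Cre. Anergic cells had the widest spread, 5.68 ± 0.13 (n = 3). CpG cells were at 6.83 ± 0.049 (n = 4) in fl/+ and 6.98 ± 0.055 (n = 4) in fl/- cells. The 8 CpG libraries stood apart from the other 20, and the fl/- libraries (6.93 to 7.04) lay above the fl/+ libraries (6.76 to 6.88). The range of the anergic libraries (5.55 to 5.81) held the means of the other groups outside CpG. In series 57 the naive libraries (5.603 to 5.649) lay below the HEL libraries without Cre (5.652 to 5.691). Those with Cre (5.583 to 5.675) overlapped both, and these differences were not tested.

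As a share of all transcripts, the members' summed TPM was 0.502% to 0.699% outside CpG, 1.17% to 1.23% in CpG fl/+ and 1.31% to 1.38% in CpG fl/- cells. CpG, culture and library series 49 go together and cannot be told apart.

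**Figure D2:**
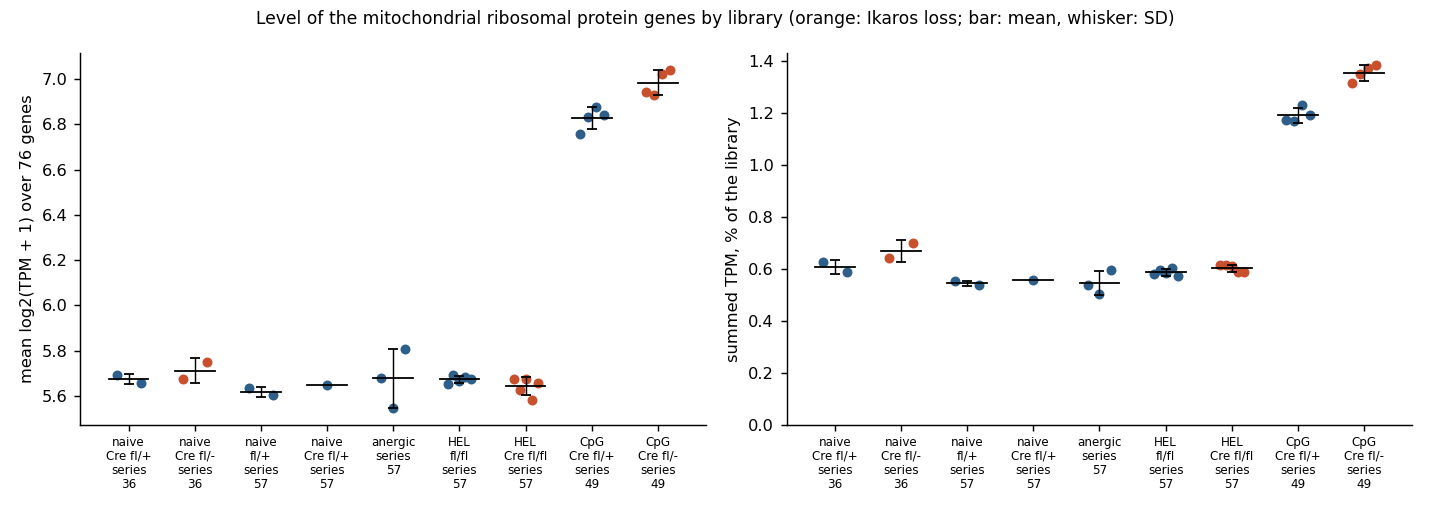
Left, mean log2(TPM + 1) over the 76 genes in each library; right, their summed TPM as a percentage of the library. Points are libraries, bars are means and whiskers SD by group and library series, and the 8 CpG libraries lie above all others on both axes.

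With CpG, transcripts of nearly the whole particle were higher than in naive cells of the same genotype. In Cre fl/+ cells 70 of 76 members were called higher, 0 lower and 6 did not pass, where 48.3% of all genes tested were called higher and 19.3% lower (67.6% in all). Calls need an adjusted p under 0.05 from limma on log2(TPM + 1), with Benjamini-Hochberg adjustment over all genes, and every adjusted p here comes from it. The median log2 difference was 1.24 for the members and 0.43 for all genes. Of 49 large-subunit genes 45 were higher (median 1.24), and of 26 small-subunit genes 24 (median 1.22).

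Mrpl12 was at 189 and 178 TPM in the naive libraries and at 681, 661, 654 and 642 TPM in the CpG libraries. Every CpG library lay above both naive ones, and the log2 difference was 1.84 ± 0.089 (SE, adjusted p = 7.98e-06). Mrps28, a relative of bacterial protein S1, was at 73.4 and 71.3 TPM in naive and 294, 274, 302 and 259 TPM in CpG cells (1.95 ± 0.10, adjusted p = 9.75e-06). Mrpl20 (167 ± 15 TPM in naive and 468 ± 3.17 TPM in CpG cells, 1.48), Mrpl21 (1.44, marked as overlapping), Mrpl18 (1.88) and Mrps27, a pentatricopeptide repeat protein (1.68, marked as overlapping), had the next smallest adjusted p. In these genes too the groups did not overlap, as in 75.3% of all genes. Mrps6 had the largest difference (19.1 ± 5.5 to 89.7 ± 5.48 TPM, 2.2 ± 0.17). It is marked as overlapping, and Slc5a3, which lies over it in RefSeq, was under 1 TPM in every group. Whether reads of Slc5a3 enter the value of Mrps6 was not tested.

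Mrps16 had the lowest difference of the members. It was at 367 and 324 TPM in naive cells and at 283, 315, 304 and 302 TPM with CpG (-0.20 ± 0.10, adjusted p = 0.117), which did not pass although the groups did not overlap. Mrpl43 did not pass either (150.1 ± 3.91 and 162 ± 13 TPM, 0.11 ± 0.11). Mrps35 was called higher (57.1 ± 4.27 to 68.9 ± 2.89 TPM, 0.27 ± 0.10, adjusted p = 0.0497) and kept the call in 1 of 6 fits with 1 library left out, the one without naive fl/+ replicate 1. The other members that did not pass were Mrpl52 (0.30), Mrps24 (0.31), Mrpl4 (0.31) and Mrpl30 (0.39).

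In Cre fl/- cells 71 members were called higher, 1 lower and 4 did not pass, where 56.3% of all genes were called higher and 19.8% lower (76.1% in all). The median was 1.34 for the members and 0.56 for all genes. Mrps22 was at 20.5 and 20.6 TPM in naive and 96.5, 94.2, 101 and 104 TPM in CpG cells (2.21 ± 0.090, adjusted p = 3.94e-07). Mrps6 (2.60 ± 0.11), Mrps10 (2.05 ± 0.086), Mrps27 (2.02 ± 0.089), Mrpl12 (2.00 ± 0.085) and Mrpl15, a large-subunit protein with a bacterial relative (1.98 ± 0.093), also rose with groups that did not overlap, as in 80.7% of all genes. Mrps16 was the member that fell, from 377 and 398 TPM to 238, 277, 280.1 and 306 TPM (-0.50 ± 0.11, adjusted p = 0.00363), again without overlap. Mrpl52 was at 1032 and 1171 TPM in naive and 1019.5 to 1252 TPM in CpG cells (0.027 ± 0.12), with overlapping groups. Mrpl30 had a difference of 0.12 ± 0.16 and did not pass. The fl/+ and fl/- responses were not tested against each other.

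On another scale both contrasts gave fewer calls. Median-of-ratios scaling moved the median of all genes to 0.0089 in fl/+ and 0.0088 in fl/- cells, and left 56 members higher and 2 lower (Mrps16 and Mrpl43) in fl/+ cells, where 32.5% and 32.4% of all genes were called, and 54 higher and 3 lower (Mrps16, Mrpl30 and Mrpl52) in fl/- cells, where 37.2% and 36.4% were. Relative to the median of all genes, the members' median was 0.81 in fl/+ and 0.78 in fl/- cells on the deposited scale, and Mrps35 turned to -0.20 without a call when scaled.

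**Figure D3:**
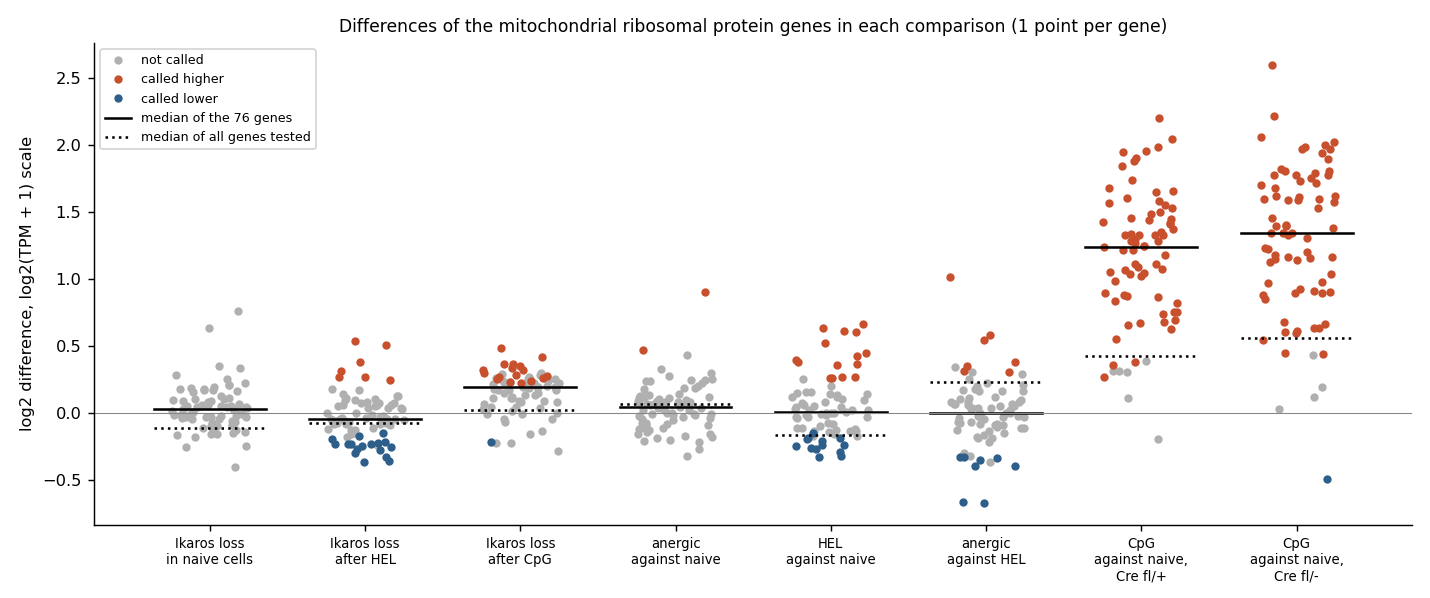
Log2 difference, on the log2(TPM + 1) scale, of each member in 8 comparisons (1 point per gene, orange called higher, blue called lower, grey not called); solid lines are the members' medians and dotted lines the medians of all genes tested. In the CpG contrasts at the right the members' medians of 1.24 and 1.34 lie above those of all genes at 0.43 and 0.56.

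Ikaros loss was compared after CpG in cells that all carried Cre, with fl/+ cells as controls. In these controls, as in the naive Cre fl/+ cells, Cre can delete the floxed Ikzf1 allele and leaves the other. The HEL controls were fl/fl without Cre, so the settings compare loss with unlike controls. Ikzf1 was at 135 to 172 TPM in the CpG controls and 195 to 261 TPM in the HEL controls. More members were higher than lower: 17 of 76 were called higher, 1 lower and 58 did not pass, where 9.14% of all genes were called higher and 5.8% lower (14.9% in all). The median was 0.19 for the members and 0.023 for all genes, and 64 members had a positive difference. In 31 members every fl/- library lay above every fl/+ library and in 1 below, and 21.4% of all genes had groups that did not overlap.

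Mrpl15 was at 76, 75.8, 79.1 and 72.2 TPM in fl/- cells and 59.9, 59.3, 59.1 and 55.8 TPM in fl/+ cells (0.37 ± 0.060, adjusted p = 0.00473). Mrps35 was at 88.9 ± 3.06 against 68.9 ± 2.89 TPM (0.36 ± 0.061, adjusted p = 0.00528). Mrps2, the relative of bacterial S2, was at 79.1 ± 5.23 against 62.3 ± 2.45 TPM (0.34 ± 0.069, adjusted p = 0.0125). The groups did not overlap in these 3 genes, nor in Mrps6 (119.9 ± 6.99 against 89.7 ± 5.48 TPM, 0.41 ± 0.071).

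Mrpl12 was at 791, 793, 818 and 762 TPM in fl/- and 681, 661, 654 and 642 TPM in fl/+ cells (0.26 ± 0.056, adjusted p = 0.0145). Mrpl55, a large-subunit protein without a bacterial relative, was at 178 ± 8.02 against 146 ± 5.01 TPM (0.28 ± 0.060, adjusted p = 0.0149). Mrpl52 had the largest difference, with 1205, 1252, 1019.5 and 1025 TPM in fl/- and 929, 712, 820.05 and 767 TPM in fl/+ cells (0.48 ± 0.11, adjusted p = 0.0165). All 3 were without overlap between the groups. The member called lower was Mrpl44, whose protein has an RNase III-like fold (142 ± 2.34 against 166 ± 6.2 TPM, -0.22 ± 0.056, adjusted p = 0.0294). Mrpl33 (-0.28 ± 0.17), Mrps18b (-0.23 ± 0.23) and Mrps33 (-0.22 ± 0.18) did not pass and had overlapping groups.

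The CpG libraries of each genotype fall into 2 runs of library numbers, replicates 1 and 2 in the first and 3 and 4 in the second. The members' median was 0.17 in the first run and 0.19 in the second (0.034 and 0.018 for all genes), and all 18 called members had the same direction in both. The 18 were called from these same libraries, so their shared direction is no separate check of the calls. With a term for the run, 21 members were higher and 1 lower, among them all 18, and 2221 genes in all were called instead of 1551. Mrpl52 differed by 0.59 in the first run and 0.37 in the second. The summed B cell markers were at 4371 to 6326 TPM in fl/- and 6344 to 8899 TPM in fl/+ libraries, without overlap, and 6 of 10 were called lower and 0 higher (median -0.40). The proliferation genes were at 4770.03 to 5165 TPM in fl/- and 3261 to 4652 TPM in fl/+ libraries, with 3 of 14 called higher and 0 lower (median 0.46). The 7 plasma cell markers summed to 1197 to 1402 TPM in fl/- and 1414 to 2058 TPM in fl/+ libraries, without overlap, and to 701 to 1025 TPM outside CpG. Of 6 tested after CpG, 2 were called higher with loss and 0 lower (median -0.035). The part of any of these lists in the differences was not tested.

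Of the 18 members called, 11 were also called with median-of-ratios scaling (10 higher, 1 lower, where 8.12% and 7.05% of all genes were). Called members numbered 10, 10, 8 and 9 without fl/- replicates 1 to 4, and 21, 12, 13 and 7 without fl/+ replicates 1 to 4. Over all genes the calls numbered 1092, 1093, 909 and 1118, then 1907, 1389, 1181 and 1039, beside 1551 with every library. Mrpl12 lost its call without fl/- replicate 3 (0.25), Mrpl55 without fl/+ replicate 4 (0.26), and Mrpl44 without any one of fl/- replicates 1 to 4 and fl/+ replicates 3 and 4 (-0.24 to -0.21).

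**Figure D4:**
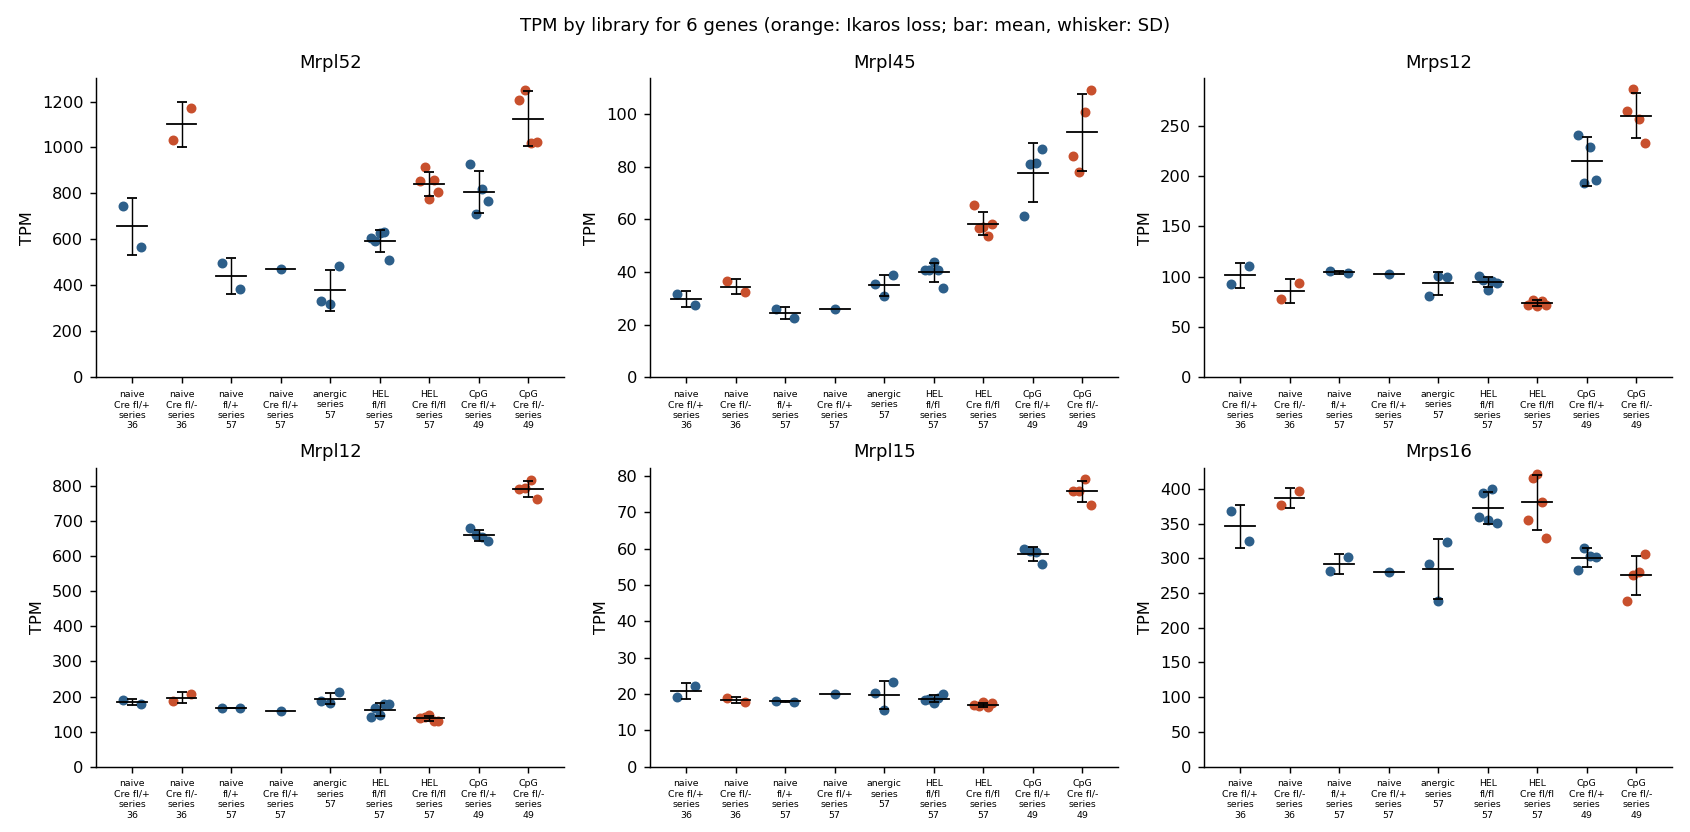
TPM of 6 members in each library, by group and library series (points are libraries, orange with Ikaros loss; bars are means and whiskers SD; each panel starts at 0). In Mrpl52 and Mrpl45 the HEL libraries with Ikaros loss lie above their controls and in Mrps12 below, and Mrpl12 and Mrpl15 are highest in CpG.

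After HEL in the mouse, Ikaros loss went with members changing both ways. Of 76 members 7 were called higher, 17 lower and 52 did not pass, where 12.9% of all genes were called higher and 24.1% lower (36.9% in all). The shares of members, 9.21% and 22.4%, were thus near those of all genes. The median was -0.046 for the members and -0.077 for all genes. The controls had no Cre, so Cre and the loss of Ikaros cannot be told apart here.

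Mrpl52 was at 852, 914, 774, 859.9 and 807 TPM with loss and 605, 593, 626, 633 and 509 TPM in controls (0.51 ± 0.067, adjusted p = 7.72e-05). Mrpl45, which tethers the ribosome to the inner membrane near the tunnel exit, was at 65.5, 57, 57.3, 53.7 and 58.2 TPM with loss and 40.9, 40.6, 43.7, 40.8 and 34 TPM in controls (0.53 ± 0.073, adjusted p = 9.4e-05). In both genes every library with loss lay above every control, and 25.8% of all genes had groups that did not overlap. Mrps34 (138 ± 8.32 against 115 ± 6.34 TPM, 0.26 ± 0.058) was higher without overlap, and Mrpl9 (103 ± 8.83 against 84.9 ± 4.11 TPM, 0.27 ± 0.064) with overlap. The other 3 that rose, Mrpl48 (0.31), Mrps25 (0.38) and Mrpl24 (0.24), are marked as overlapping a neighbour.

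Mrps12, the relative of a bacterial protein at the decoding centre, was at 71.9, 77.2, 70.7, 76.4 and 71.7 TPM with loss and 100.3, 97.2, 87.2, 95.3 and 93.5 TPM in controls (-0.36 ± 0.053, adjusted p = 0.000165). Mrps5, of the small subunit, was at 21.7 ± 2.01 against 27.4 ± 1.05 TPM (-0.33 ± 0.067, adjusted p = 0.0019). Mrpl3 (40.6 ± 2.95 against 49.4 ± 2.01 TPM, -0.28), Mrpl38 (58.9 ± 5.94 against 72.6 ± 3.27 TPM, -0.30) and Mrpl36 (68.5 ± 2.82 against 80.6 ± 3.18 TPM, -0.23), all of the large subunit, fell too. The groups did not overlap in these 5 genes, as in 25.8% of all genes, and they did in Mrpl20 (98.8 ± 7.58 against 119 ± 6.26 TPM, -0.27 ± 0.062).

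With median-of-ratios scaling, 11 members were higher and 9 lower, where 17.7% and 16% of all genes were. The 7 raised members and 9 of the 17 lowered ones kept their calls, and Mrpl20 (-0.19) did not.

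The effect of losing Ikaros was then set against itself, after CpG and after HEL, in a model over 18 libraries. It was higher with CpG than with HEL in 24 members and lower in 0 by limma, where 15.2% of all genes were called higher and 7.19% lower (22.4% in all). At an unadjusted p under 0.05 there were 36 members, and voom on recovered reads called 16 higher and 0 lower. The shares of all genes for these counts are not given here, so the counts cannot be set against them. The median was 0.21 for the members and 0.078 for all genes. Median-of-ratios scaling gave 18 higher and 0 lower, where 12.2% and 9.67% of all genes were. Stimulus, culture, library series and control genotype differ together and cannot be told apart.

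Mrps12 had the largest difference (0.64 ± 0.10, adjusted p = 0.000279): its effect was -0.36 ± 0.053 with HEL and 0.28 ± 0.096 with CpG, which did not pass. Mrps5 (0.60 ± 0.098, adjusted p = 0.000325), Mrpl55 (0.53 ± 0.091, adjusted p = 0.00047), Mrpl20 (0.52 ± 0.082, adjusted p = 0.000215) and Mrpl12 (0.50 ± 0.097, adjusted p = 0.0014) were each called lower with HEL and higher with CpG, which makes 4 of the 17 lowered with HEL and 4 of the 17 raised with CpG. Mrpl15 (0.49 ± 0.073, adjusted p = 0.000143) was called with CpG and was at -0.12 ± 0.057 with HEL, which did not pass. These 6 kept their calls when each of the 18 libraries was left out in turn. Mrpl52 and Mrps25 were called higher in both settings, 2 of the 7 raised with HEL and 2 of the 17 raised with CpG. Of all genes, 12.9% were called higher and 24.1% lower with HEL, and 9.14% higher with CpG. The share of all genes called in both settings is not given here, so these shared counts are not read as a trait of the members.

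On the other side Mrpl24 (-0.40 ± 0.17), Mrpl48 (-0.36 ± 0.20), Mrps33 (-0.33 ± 0.21) and Mrpl33 (-0.28 ± 0.19) did not pass. Mrpl24 passed without CpG fl/+ replicate 1 (-0.50) or CpG fl/- replicate 3 (-0.49), and Mrpl48 without CpG fl/+ replicate 1 (-0.53).

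**Figure D5:**
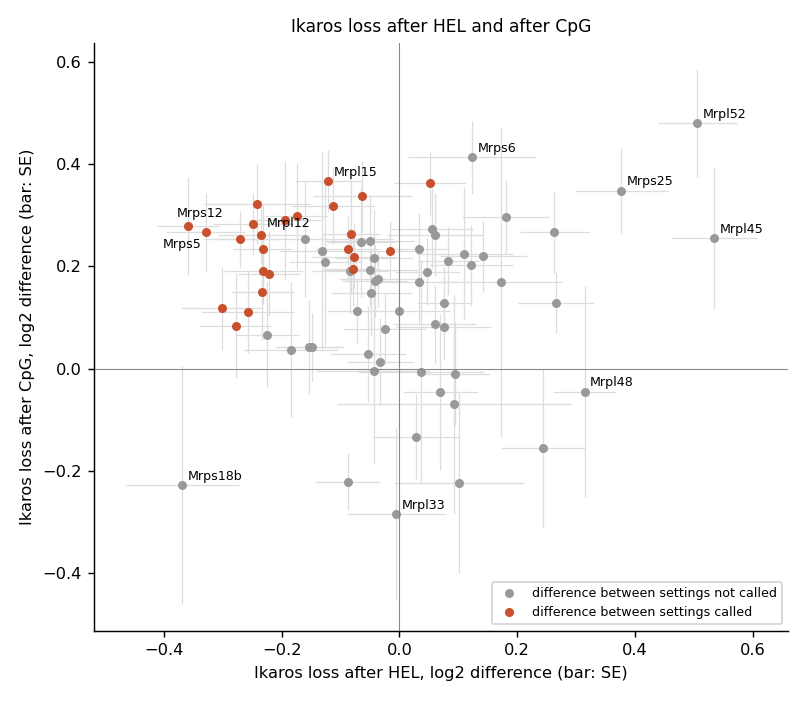
Log2 difference with Ikaros loss after HEL (horizontal axis) and after CpG (vertical axis) for each of the 76 members, with bars of 1 SE; orange points passed the test of the difference between settings. Mrps12 and Mrps5 lie at the left at -0.36 and -0.33 on the horizontal axis, and Mrpl52 is high on both axes at 0.51 and 0.48.

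In naive cells of series 36, with 2 libraries a side, limma called 0 of 75 members tested, where 0.0199% of all genes were called (0% lower). At an unadjusted p under 0.05 there were 2 members, beside 896 of all 10053 genes tested, and voom called 0 members. With median-of-ratios scaling it was 0, where 0.159% and 0.00995% of all genes were called higher and lower. Mrpl52 had the largest difference, with 1032 and 1171 TPM in fl/- and 744 and 569 TPM in fl/+ cells (0.76 ± 0.15, adjusted p = 0.123). Mrps33 (0.63 ± 0.24), Mrpl38 (-0.40 ± 0.21) and Mrpl48 (0.35 ± 0.19) followed, and the groups did not overlap in these 4, as in 40.6% of all genes. The median was 0.027 for the members and -0.12 for all genes.

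The response to 1 day of HEL was read in fl/fl cells without Cre, beside the 3 naive libraries of series 57. These naive libraries were fl/+ and 1 of them had Cre, so HEL and Ikzf1 genotype cannot be told apart. Of 76 members 15 were called higher, 13 lower and 48 did not pass, where 9.92% of all genes were called higher and 38.1% lower (48% in all). The median was 0.00 for the members and -0.16 for all genes. Mrpl45 was at 26, 22.7 and 26 TPM in naive cells and 40.9, 40.6, 43.7, 40.8 and 34 TPM after HEL (0.66 ± 0.086, adjusted p = 0.000225). Mrpl30 (207 ± 8.23 to 298 ± 28.3 TPM, 0.52 ± 0.079), Mrpl9 (0.45 ± 0.060) and Mrpl34 (0.42 ± 0.066) also rose. Mrpl24 (63.9 ± 3.63 to 99.4 ± 3.51 TPM, 0.63 ± 0.058, adjusted p = 3.3e-05), Mrpl48 (0.61 ± 0.065) and Mrps6 (0.61 ± 0.12) rose and are marked as overlapping. The groups did not overlap in any of these 7, as in 46% of all genes.

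Among the lowered members were the paralogs Mrps18a (107 ± 1.3 to 89.98 ± 1.99 TPM, -0.24 ± 0.049) and Mrps18b (43.8 ± 2.77 to 34.7 ± 1.74 TPM, -0.33 ± 0.066), which sit in the large and the small subunit. Mrps10 (-0.33 ± 0.072), Mrps28 (-0.29 ± 0.073), Mrpl38 (-0.27 ± 0.059) and Mrpl54 (-0.26 ± 0.069) were lower as well. With median-of-ratios scaling, where the median of all genes was 0.00, 35 members were higher and 0 lower (20% and 20.2% of all genes), and these 6 lost their calls with differences of -0.16 to -0.069.

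Anergic cells, which live with their antigen, had 2 members higher than naive cells of the same series, 0 lower and 74 that did not pass, where 4.48% of all genes were called higher and 2.89% lower (7.37% in all). At an unadjusted p under 0.05 limma had 8 members, a count given here without the share of all genes. The median was 0.046 for the members and 0.065 for all genes. Mrpl45 was at 35.3, 30.7 and 38.9 TPM in anergic and 26, 22.7 and 26 TPM in naive cells (0.47 ± 0.12, adjusted p = 0.048). Mrpl23, which rests on few reads, was at 3.61, 3.32 and 3.52 TPM in anergic and 2.12, 0.963 and 1.27 TPM in naive cells (0.90 ± 0.19, adjusted p = 0.0292). The groups did not overlap in either gene, as in 29.2% of all genes. Mrps33 (0.43 ± 0.15) and Mrpl14 (-0.32 ± 0.14) did not pass.

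With median-of-ratios scaling 1 member was called (Mrpl23, higher, where 3.87% and 4.24% of all genes were called higher and lower), and with voom 0. Called members numbered 0, 8 and 1 without anergic replicates 1 to 3, 1 and 0 without naive fl/+ replicates 1 and 2, and 0 without the naive library with Cre. The member called without anergic replicate 3 was Mrpl14, which was lower (-0.49), as it was without the Cre library on each side (-0.48). Mrps33 was among those called higher without anergic replicate 2 (0.58).

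Against cells 1 day after HEL, anergic cells had 7 members higher, 8 lower and 61 that did not pass, where 36.8% of all genes were called higher and 5.39% lower (42.2% in all). The median was 0.00 for the members and 0.23 for all genes. Mrps2 was at 31.4, 31.2 and 29.96 TPM in anergic and 21.7, 18.8, 23.8, 19.5 and 20.8 TPM in HEL-exposed cells (0.54 ± 0.090, adjusted p = 0.00183). Mrps18b was at 60.3, 51.9 and 45.6 against 35.1, 32.5, 36.5, 33.4 and 36.2 TPM (0.58 ± 0.097, adjusted p = 0.00193). Mrpl23 (1.01 ± 0.17), Mrpl3 (0.38 ± 0.098), Mrps28 (0.35 ± 0.095), Mrps10 (0.31 ± 0.088) and Mrps27 (0.30 ± 0.090) were higher as well. Mrpl52 was at 334, 319.6 and 483 TPM in anergic and 605, 593, 626, 633 and 509 TPM in HEL-exposed cells (-0.67 ± 0.13, adjusted p = 0.0041). Mrpl24 (-0.67 ± 0.082), Mrps16 (285 ± 42.9 against 372 ± 23.1 TPM, -0.39 ± 0.10), Mrpl30 (-0.39 ± 0.11), Mrpl9 (-0.34 ± 0.083) and Mrpl34 (-0.33 ± 0.096) were lower too, and none of the genes named here overlapped between groups, as in 39% of all genes. The last 3 comparisons share libraries, so they are not independent.

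With median-of-ratios scaling, where the median of all genes was 0.0070, 3 were higher (Mrps2, Mrps18b and Mrpl23) and 25 lower (11.1% and 12.8% of all genes). Without anergic replicate 3 the counts on the deposited scale were 7 and 16, without anergic replicate 2 they were 13 and 6, and without anergic replicate 1 they were 5 and 5, with Mrpl3 (0.30), Mrps27 (0.27) and Mrpl34 (-0.23) no longer called; Mrps27 was also lost without HEL replicate 2 (0.27).

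Other genes of mitochondrial translation were followed in lists, whose counts stand beside the shares of all genes given above for each comparison (48.3% higher and 19.3% lower for CpG in fl/+ cells). In CpG against naive Cre fl/+ cells, 6 of 6 mitoribosomal proteins with other names were higher (median 0.85), among them the pentatricopeptide protein Ptcd3 (8.73 ± 1.6 to 50.4 ± 7.26 TPM, 2.40 ± 0.17) and the small-subunit protein Dap3 (1.22 ± 0.11). Mrp63, looked up after the tables were seen, was higher too (0.78). Of 13 translation factors 10 were higher and 1 lower, with the elongation factors Gfm1 (2.09 ± 0.12), Tsfm (1.56 ± 0.097) and Tufm (1.31 ± 0.13). Of 20 mitochondrial aminoacyl-tRNA synthetases 16 were higher and 0 lower, such as Yars2 (1.6 ± 0.12) and Rars2 (2.10 ± 0.18).

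Of 24 assembly factors 17 were higher and 1 lower with CpG. Of 14 genes of mitochondrial transcription and mRNA handling 12 were higher and 0 lower, with the mRNA-stabilising protein Slirp at 19.1 ± 2.69 and 119.7 ± 24.1 TPM (2.57 ± 0.21). Of 8 regulators of mitochondrial genes tested 4 were higher and 1 lower, Myc at 46.5 ± 0.531 and 206 ± 22.9 TPM (2.12 ± 0.12) and the coactivator Pprc1 (1.41 ± 0.14) among the first. With median-of-ratios scaling, where 32.5% and 32.4% of all genes were called, the regulators were 3 higher and 3 lower (median -0.028) and the assembly factors 12 higher and 5 lower. All 14 proliferation genes were higher (median 3.41).

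Among other large sets, 24 of 86 cytosolic ribosomal protein genes were higher with CpG and 26 lower (median -0.044), and 60 of 79 nuclear oxidative phosphorylation genes were higher and 5 lower (median 0.75). With median-of-ratios scaling the counts were 13 higher and 45 lower (median -0.51) for the first set and 34 higher and 11 lower (median 0.28) for the second. With HEL against naive cells, 72 of 86 cytosolic ribosomal protein genes were higher and 2 lower (median 0.61), and with scaling 77 higher and 1 lower (median 0.79). These sets were not tested against the members.

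With Ikaros loss after HEL, 7 of 24 assembly factors were lower and 0 higher, such as the rRNA methyltransferase Mrm1 (-0.58 ± 0.079), where 24.1% of all genes were lower and 12.9% higher. Of 8 regulators 5 were lower and 0 higher, among them Myc (28.5 ± 6.98 against 49.7 ± 8.72 TPM, -0.79 ± 0.15) and Pprc1 (-0.66 ± 0.085). With scaling the assembly factors were 1 higher and 5 lower and the regulators 0 higher and 3 lower, where 17.7% and 16% of all genes were called. Of 14 genes of mitochondrial transcription and mRNA handling 3 were lower and 0 higher. Tfam, which packages and transcribes the mitochondrial genome, was among the 3 (21.9 ± 0.795 against 31.9 ± 1.98 TPM, -0.52 ± 0.058). Of 13 translation factors 2 were lower, Tsfm (-0.38 ± 0.061) among them, and 2 higher. With scaling the first list was 1 higher and 2 lower and the second 2 higher and 2 lower. After CpG, 4 of 24 assembly factors were higher and 0 lower, such as Gtpbp10 (0.70 ± 0.12), where 9.14% of all genes were higher. Tsfm (0.28 ± 0.059) and Myc (290.4 ± 29.9 against 206 ± 22.9 TPM, 0.49 ± 0.10) were higher. Calls numbered 1 higher and 0 lower of 13 translation factors, and 1 higher and 0 lower of 8 regulators. The difference between the settings passed in 10 of 24 assembly factors toward CpG and 1 toward HEL, where 15.2% and 7.19% of all genes passed, and in Myc (1.29 ± 0.21), Pprc1 (0.70 ± 0.11), Tsfm (0.66 ± 0.080) and Tfam (0.46 ± 0.089). By list it passed toward CpG in 2 of 8 regulators, 3 of 13 translation factors and 3 of 14 transcription and mRNA handling genes. Toward HEL it passed in 0, 1 and 0 of them.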

How the data were processed

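RNA-seq values of 28 libraries were used, of 40 samples in the labels. The authors deposited TPM values, a table of 24732 genes for each library, which sums to 1000000. Per the submitters' processing notes, TopHat 1.4.1, Bowtie and featureCounts 1.5.0 are among the tools, beside SAMtools 1.4 and deepTools 3.0.1, and the build is mm9; annotation and strand use are not stated in these sources. Per the labels' protocols, poly(A) RNA was isolated with magnetic beads. TPM is a share of the library, so a large change in other genes shifts every value.

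Steps between low TPM values gave whole reads for 18843 of 18843 genes above 0 (tolerance 0.01). Groups came from genotype and cell preparation in the labels. No pair of replicates (38 pairs) agreed within sampling noise, with a chi-square per degree of freedom of 6.34 to 51.5.

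All genes were fitted in 9 comparisons with limma 3.58.1 (R 4.3.3), a moderated two-sided test on log2(TPM + 1) that used the mean-variance trend and Benjamini-Hochberg adjustment. A gene was tested if it had 1 TPM in as many libraries as the smaller group holds, or in 4 for the CpG and HEL model. The scale understates changes of low genes. A value after ± is an SE beside a log2 difference and an SD beside a level. Scripts were tested on simulated data. Alternatives were a pseudocount of 0.1, no filter, median-of-ratios scaling, no trend, each library left out, a term for the run of library numbers after CpG, all 16 libraries of series 57 in 1 fit for the loss after HEL, naive libraries of both series for CpG in fl/+ cells, anergic against naive cells without the Cre library on each side and, added after seeing the data, voom on recovered reads. Named were the 5 highest and 5 lowest members; per comparison up to 6 higher and 6 lower members by adjusted p with a mean of at least 5 TPM in the higher group, up to 4 farthest from the members' median and up to 4 called against the majority; up to 3 genes per list; and Ikzf1. Members named outside this rule, after their values were seen, were Mrpl52 in both losses' shared calls and after CpG, Mrps25, Mrpl24 after HEL, Mrp63 and the members that did not pass with CpG in fl/+ cells. The members and lists were chosen with earlier results of these data known.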

Additional observations from a re-analysis of the deposited data

Results flagged for a closer look

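In 164 checks of a member's level within a group of 4 or 5 libraries, 4 had a library far from the others, where chance gives about 1 in 20. Mrpl43 was at 141.6 TPM in HEL-exposed fl/fl replicate 4 without Cre and at 133 to 134 TPM in the others. Mrps10 was at 20.4 TPM in HEL-exposed fl/fl replicate 2 without Cre and at 17.4 to 18.1 TPM in the others. Mrpl3 was at 135.9 TPM in CpG fl/- replicate 1 and at 121 to 124 TPM in the others. Mrpl23 was at 1.97 TPM in CpG fl/- replicate 2 and at 4 to 4.27 TPM in the others, from few reads.

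Ikaros loss differed between CpG and HEL, by limma's test of the difference on log2(TPM + 1), in 6 of the named members. The naming rule takes up to 6 such members by adjusted p, so it sets this count. Of all genes, 15.2% were called higher and 7.19% lower. The difference was 0.64 for Mrps12, 0.60 for Mrps5, 0.53 for Mrpl55, 0.52 for Mrpl20, 0.50 for Mrpl12 and 0.49 for Mrpl15, each higher with CpG.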

How the results depend on the processing

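Of 1203 values of named members under alternatives, 1125 kept direction and side of the threshold, 59 lost a call, 8 gained one in the same direction and 11 changed sign. Of the 11, 2 had been called: Mrps35 in CpG against naive Cre fl/+ cells went to -0.20 with median-of-ratios scaling and -0.20 with voom. In 6 an uncalled value became a call in the lower direction, with scaling and with voom: Mrpl43 (-0.36 and -0.37) in fl/+ cells, and Mrpl52 (-0.59 and -0.59) and Mrpl30 (-0.50 and -0.50) in fl/- cells. The other 3 were Mrpl52 in fl/- cells with 1 library left out, without a call. With scaling, called members were 11 for Ikaros loss after CpG, 1 for anergic against naive and 28 for anergic against HEL. With voom they were 15 for Ikaros loss after HEL, 10 after CpG, 0 for anergic against naive and 27 for anergic against HEL. Of all genes, voom called 3496 of 10258 for Ikaros loss after HEL and 1629 of 10386 after CpG. Its calls over all genes in the anergic comparisons are not given here. Anergic against naive had 0 without the filter, 1 without the trend and 1 without the Cre library on each side. The cause was not tested.

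The members' median moved, with scaling and with voom, to 0.030 and 0.028 for Ikaros loss after HEL, 0.13 and 0.15 in naive cells, -0.024 and -0.024 for anergic against naive, 0.17 and 0.18 for HEL against naive, -0.24 and -0.24 for anergic against HEL, and for CpG against naive 0.77 and 0.78 in Cre fl/+ and 0.73 and 0.75 in Cre fl/- cells. The level in CpG minus the other groups was 1.24 as a mean of log2(TPM + 1) and 1.11 as a log2 ratio of summed TPM.

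With 1 library left out at a time, called members ranged from 21 to 25 for Ikaros loss after HEL, 7 to 21 after CpG, 0 to 0 in naive cells, 0 to 8 for anergic against naive, 20 to 30 for HEL against naive, 10 to 23 for anergic against HEL, 21 to 30 for the difference of Ikaros loss, 67 to 70 for CpG in Cre fl/+ and 70 to 73 in Cre fl/- cells. In the same order the medians ranged from -0.060 to -0.027, 0.16 to 0.21, -0.0070 to 0.053, -0.032 to 0.086, 0.00 to 0.027, -0.057 to 0.061, 0.18 to 0.24, 1.20 to 1.25 and 1.30 to 1.35. In these fits the calls over all genes ranged from 3262 to 3764 for Ikaros loss after HEL and from 909 to 1907 after CpG. For the other comparisons they are not given here, so those ranges of called members have no share beside them. A library left alone in its group is taken to vary like the others. No paired analysis was possible because the labels give the libraries no replicate numbers. A term for the run of library numbers gave 21 members higher and 1 lower for Ikaros loss after CpG, with 2221 genes in all called instead of 1551. Few reads limit Mrpl23, and 2 libraries a side limit naive cells.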
